A study of Mus musculus with 27 samples.

Results

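The 35 genes described here encode proteins of fatty acid uptake, storage and oxidation, and were taken as a named list from the mRNA table of the series, which holds 8987 genes. All 35 were present in the table, and all passed the filter on low values. They were grouped by step into 6 genes of uptake and activation, 4 of storage and lipolysis, 6 of the carnitine shuttle and its control, 10 of the beta-oxidation core and 9 auxiliary genes of beta-oxidation. The rule for membership is function and uses no value of these libraries, but the list was drawn up with earlier results of these data known.

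The samples were left ventricles of adult FVB mice, collected 7 days after TAC, a surgical narrowing of the transverse aorta that puts a pressure load on the left ventricle, or after sham surgery. The mice were wild type (WT) or caPI3Kalpha, which carry a constitutively active form of phosphoinositide 3-kinase alpha. The mRNA libraries number 11 of the 27 in the series and are named here by animal number: WT sham has 4, WT TAC 3, and sham and TAC hearts of caPI3Kalpha mice 2 each. The labels do not name the promoter of the transgene, the number of founder lines, or the exact age or sex of the mice, and they give no vehicle or other agent.

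The adult heart draws most of its energy from fatty acids. Lipoprotein lipase frees them from circulating lipoproteins, membrane and cytosolic carriers bring them into the cardiomyocyte, and acyl-CoA synthetases activate them. Activated fatty acids are stored as triglyceride or pass into mitochondria through the carnitine shuttle, where repeated cycles of beta-oxidation shorten them to acetyl-CoA. The nuclear receptor PPAR-alpha with its partner RXR, the estrogen-related receptors and the coactivator PGC-1 are known activators of many of these genes, and a fall of the pathway is a textbook feature of the heart under pressure load.

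Values are RPKM, read counts scaled to transcript length and library size, so that levels can be compared between genes. Differences are log2 fold changes of RPKM + 0.5 with their standard error (SE), from 1 limma fit of all 11 libraries, and p-values are two-sided and adjusted over all 8987 genes by the Benjamini-Hochberg method. A gene is said to rise or fall where its adjusted p was under 0.05. The read depth of the libraries is unknown. Animal numbers identify separate hearts.

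The libraries stood in 2 sets that the labels do not give, split along a first principal component that took up 52% of the variance. On one side were the 4 caPI3Kalpha libraries together with WT sham 6 and WT TAC 1, called the first set here, and on the other WT sham 7, 13 and 15 with WT TAC 17 and 19, the second set. Genotype and set therefore overlap strongly: both sets can be compared for the WT hearts, but caPI3Kalpha hearts have only 1 WT library of each operation in their own set. The ratio of Etfa to Etfb, the alpha and beta subunits of the electron transfer flavoprotein, shows the size of the offset, since it lay between 0.51 and 0.67 in the 6 libraries of the first set and between 1.21 and 1.37 in the 5 of the second. Pik3ca, the gene of the kinase subunit itself, read 5.3 to 8.9 RPKM in the WT libraries and 101.3 to 195 RPKM in the caPI3Kalpha libraries, so that the genotypes were separated as labelled.

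In WT sham hearts 4 of the 6 genes of uptake and activation led the order of levels, while Acsl1 ranked 16 and Slc27a1 31 of 35. Fabp3, the cytosolic fatty acid binding protein of heart muscle, stood first at 1605 ± 226 RPKM (SD, n = 4), followed by Lpl, lipoprotein lipase, at 966 ± 144 RPKM. Cd36, the membrane fatty acid translocase, at 491 ± 92.1 RPKM, Fabp4, a binding protein also known from endothelium and fat, at 467 ± 88.5 RPKM, and Acadl, long-chain acyl-CoA dehydrogenase, at 452 ± 70.1 RPKM, came next and lay within each other's spread. Ech1, Acadm, Hadhb, Acadvl, Etfa, Etfb, Acaa2, Acot13, Etfdh and Hadha filled ranks 6 to 15, between 345 and 216 RPKM. The lowest levels were those of Acot2, a mitochondrial thioesterase, at 12.3 ± 2.21 RPKM, Lipe, hormone-sensitive lipase, at 8.25 ± 1.58 RPKM, and Dgat1, an enzyme of the last step of triglyceride synthesis, at 5.05 ± 1.17 RPKM. The 35 genes together took 3.64 to 3.97% of the listed RPKM in WT sham libraries and 2.62 to 3.03% after TAC. In caPI3Kalpha mice the share was 3.42 to 3.61% with sham surgery and 3.19 to 3.53% after TAC. The share was lower in each of the 3 WT TAC libraries than in any library of the other groups. Fabp3 weighed heavily in it, with 17.7 to 32.9% of the summed RPKM of the 35 genes. Without Fabp3 the share was 1.91 to 2.38% in WT TAC, which overlapped the 2.19 to 2.37% of caPI3Kalpha TAC.

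**Figure D1:**
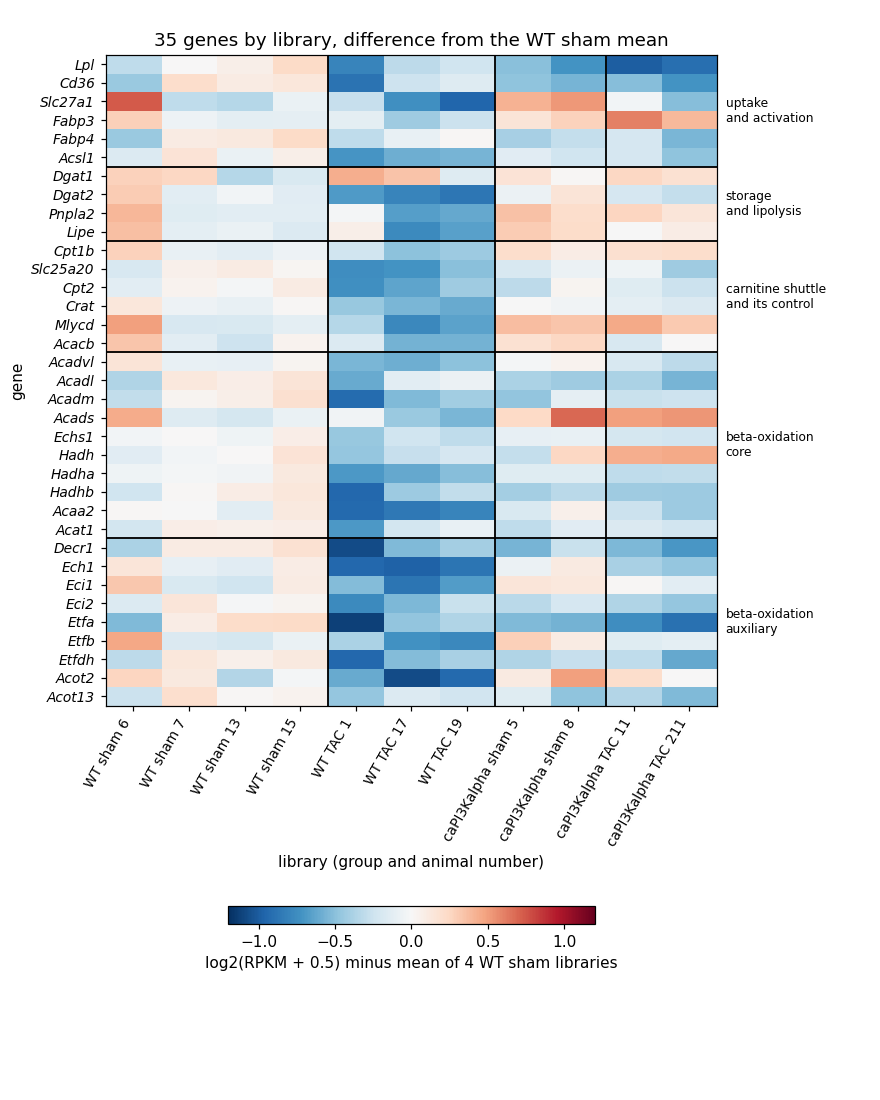
Each row is a gene, ordered by step, and each column a library; colour gives log2(RPKM + 0.5) minus the mean of the 4 WT sham libraries, with blue for lower and red for higher. The WT TAC columns are blue for nearly all rows, and WT sham 6 differs from the other WT sham libraries in many rows.

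The first comparison asked how pressure load changed these genes in WT hearts. Of the 35 genes 20 fell in WT TAC compared with WT sham and 0 rose. Over all genes 2.85% fell and 13.6% rose, so that the direction in the group was opposite to that of most called genes. The median change of the group was -0.54, against 0.17 over all genes, and 34 of 35 changes were below 0. In 22 genes every WT TAC library lay below every WT sham library, which was the case for 4.65% of all genes. The falls were most frequent among the carnitine shuttle genes (5 of 6) and the auxiliary genes of beta-oxidation (7 of 9), followed by the beta-oxidation core (6 of 10), uptake and activation (1 of 6) and storage and lipolysis (1 of 4). Whether the steps differed from each other in their change was not tested.

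**Figure D2:**
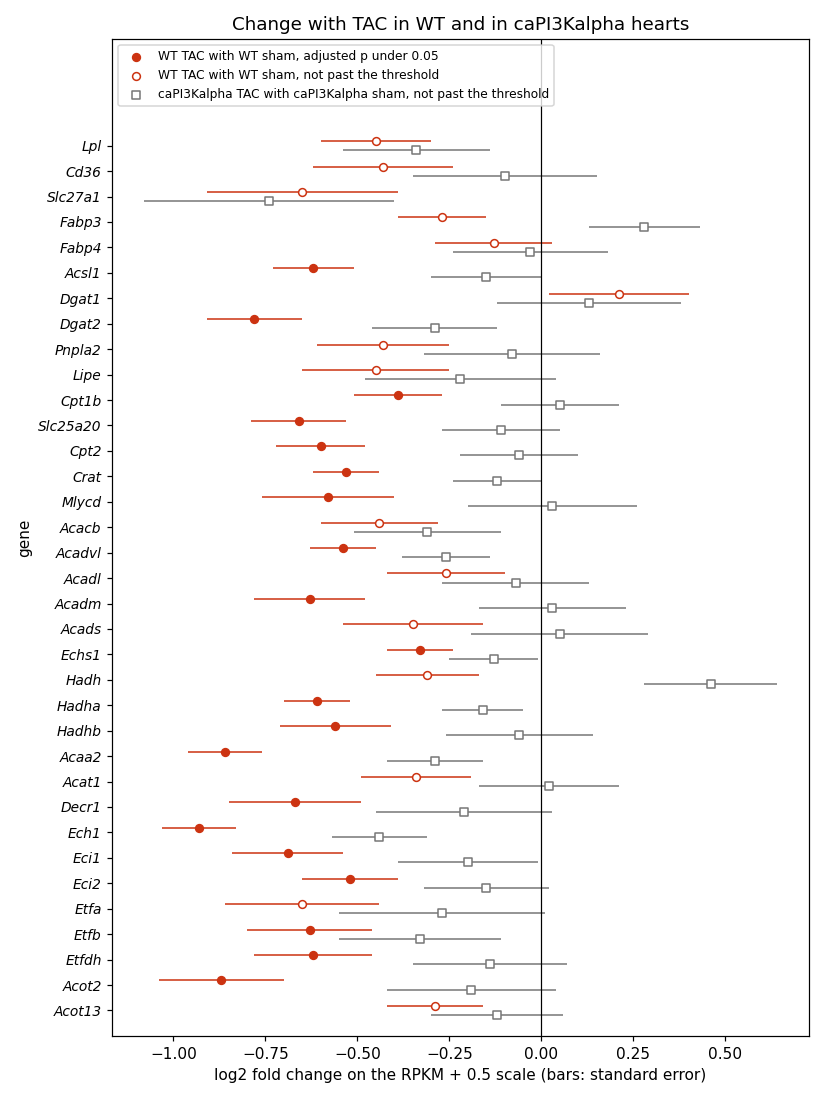
Circles give the log2 fold change of WT TAC compared with WT sham for each gene (rows, ordered by step), filled where adjusted p was under 0.05, and squares that of caPI3Kalpha TAC compared with caPI3Kalpha sham; bars are the SE. All circles but that of Dgat1 lie below 0, from -0.93 for Ech1 to -0.13 for Fabp4, and no square passed the test.

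Among the genes of uptake and activation, Acsl1 was the one that fell. It encodes the main long-chain acyl-CoA synthetase of the heart, which activates fatty acids on entry. Acsl1 read 176.2, 221.4, 186.7 and 206.9 RPKM in WT sham 6, 7, 13 and 15, and 120.1, 131.1 and 134.0 RPKM in WT TAC 1, 17 and 19. All WT TAC values were below all WT sham values, and the change was -0.62 (SE 0.11, adjusted p = 0.00446). Lpl read 774.2, 962.9, 1003.9 and 1121.1 RPKM in the WT sham hearts and 553.0, 770.9 and 812.9 RPKM in the WT TAC hearts. Its groups overlapped only because WT sham 6 lay within the range of WT TAC, and the change of -0.45 (SE 0.15, adjusted p = 0.071) did not pass the test. Cd36 gave a similar picture, with a change of -0.43 (SE 0.19, adjusted p = 0.156). Slc27a1, the fatty acid transport protein FATP1, changed by -0.65 but with a wide SE of 0.26 (adjusted p = 0.109). Fabp3 was lower in every WT TAC library, at 1186.5 to 1465.6 RPKM against 1466.6 to 1941.2 RPKM in WT sham, but the gap was narrow and its change of -0.27 did not pass (SE 0.12, adjusted p = 0.143). Fabp4 had the smallest change of the group, -0.13 (SE 0.16, adjusted p = 0.637).

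Of the storage and lipolysis genes only Dgat2, which makes triglyceride from diacylglycerol and acyl-CoA, fell. Dgat2 read 82.2, 60.7, 64.8 and 60.5 RPKM in WT sham and 41.3, 38.1 and 36.2 RPKM in WT TAC. The groups were far apart, and the change was -0.78 (SE 0.13, adjusted p = 0.0027). Dgat1, which catalyses the same reaction, was the only one of the 35 genes with a change above 0, at 0.21 (SE 0.19, adjusted p = 0.492), and its sign was -0.01 after quantile normalization. The lipases Pnpla2, which takes the first fatty acid from stored triglyceride, and Lipe, which takes the next, had changes of -0.43 (SE 0.18, adjusted p = 0.126) and -0.45 (SE 0.20, adjusted p = 0.15). Pnpla2 showed the offset between the library sets plainly: it read 79.1 RPKM in WT sham 6 and 59.2 RPKM in WT TAC 1 of the first set, and 54.3 to 55.1 against 37.7 to 39.0 RPKM in the second, so that WT TAC was lower within either set while the pooled groups overlapped.

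All genes of the carnitine shuttle and its control fell except Acacb. Slc25a20, the carnitine-acylcarnitine translocase of the inner mitochondrial membrane, read 42.4, 50.5, 51.9 and 49.2 RPKM in WT sham and 28.6, 29.3 and 33.9 RPKM in WT TAC, a change of -0.66 (SE 0.13, adjusted p = 0.0061). Cpt2, the inner carnitine palmitoyltransferase, which returns acylcarnitine to acyl-CoA, went from 73.0, 82.0, 78.4 and 85.4 RPKM to 47.7, 51.2 and 58.9 RPKM, a change of -0.60 (SE 0.12, adjusted p = 0.00727). Crat, carnitine acetyltransferase, which buffers acetyl-CoA, went from 103.0, 89.4, 87.9 and 94.6 RPKM to 68.2, 64.0 and 61.3 RPKM, a change of -0.53 (SE 0.09, adjusted p = 0.00413). None of these groups overlapped. Cpt1b, the muscle form of the outer transferase and the entry step of the shuttle, fell by less, with 109.2 to 144.9 RPKM in WT sham and 84.8 to 101.5 RPKM in WT TAC and a change of -0.39 (SE 0.12, adjusted p = 0.047). It was called in only 1 of the 11 fits that each left out 1 library. Mlycd and Acacb set the level of malonyl-CoA, the inhibitor of Cpt1b, in opposite directions. Mlycd, malonyl-CoA decarboxylase, which removes it, fell by 0.58 (SE 0.18, adjusted p = 0.0446), and was called in 2 of those 11 fits. Acacb, the acetyl-CoA carboxylase that makes it at the mitochondrion, changed by -0.44 (SE 0.16) without passing the test (adjusted p = 0.0815).

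In the beta-oxidation core the largest fall was that of Acaa2, the mitochondrial 3-ketoacyl-CoA thiolase, which carries out the last reaction of each cycle. Acaa2 read 233.3, 230.0, 211.3 and 250.3 RPKM in WT sham and 120.8, 127.3 and 133.0 RPKM in WT TAC. The groups were far apart, with no offset of WT sham 6 or WT TAC 1, and the change was -0.86 (SE 0.10, adjusted p = 0.000483). Hadha, the alpha subunit of the trifunctional protein, which handles long-chain substrates at the inner membrane, read 207.9, 212.3, 209.1 and 233.4 RPKM in WT sham and 133.2, 140.2 and 151.5 RPKM in WT TAC, a change of -0.61 (SE 0.09, adjusted p = 0.00148). Its partner Hadhb fell by 0.56 (SE 0.15, adjusted p = 0.0288). Acadvl, the very long-chain acyl-CoA dehydrogenase that starts the cycle, read 276.9, 234.9, 232.6 and 255.6 RPKM in WT sham and 170.3, 165.9 and 176.9 RPKM in WT TAC, a change of -0.54 (SE 0.09, adjusted p = 0.00339). Acadm, the medium-chain dehydrogenase, fell by 0.63 (SE 0.15, adjusted p = 0.0191) and Echs1, the short-chain enoyl-CoA hydratase, by 0.33 (SE 0.09, adjusted p = 0.0284). The other 4 genes of the core had changes that did not pass, with adjusted p from 0.142 to 0.274. Acads, the short-chain dehydrogenase, changed by -0.35 (SE 0.19) and Acat1, a thiolase also of ketone body metabolism, by -0.34 (SE 0.15). Hadh, the short-chain 3-hydroxyacyl-CoA dehydrogenase, changed by -0.31 and Acadl by -0.26.

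The auxiliary genes held the largest change of all 35. Ech1, an isomerase needed for unsaturated fatty acids, read 380.7, 320.7, 314.3 and 366.2 RPKM in WT sham and 179.0, 175.1 and 186.9 RPKM in WT TAC. The WT TAC values lay close together and far below WT sham, with a change of -0.93 (SE 0.10, adjusted p = 0.00026). Other enzymes for unsaturated fatty acids fell with it: the isomerase Eci1 by 0.69 (SE 0.15, adjusted p = 0.00961), the related Eci2 by 0.52 (SE 0.13, adjusted p = 0.0209) and the reductase Decr1 by 0.67 (SE 0.18, adjusted p = 0.0302). Acot2 read 14.6, 13.2, 9.4 and 11.9 RPKM in WT sham and 7.8, 5.5 and 6.1 RPKM in WT TAC, a change of -0.87 (SE 0.17, adjusted p = 0.0071). Acot2 is nearly identical in sequence to its neighbour Acot1, so the division of reads between them is uncertain. The electron transfer genes, which pass electrons from the dehydrogenases to the respiratory chain, had changes of -0.63 for Etfb (SE 0.17, adjusted p = 0.0258), -0.62 for Etfdh (SE 0.16, adjusted p = 0.0228) and -0.65 for Etfa (SE 0.21), the last of which did not pass (adjusted p = 0.0589). Acot13, a further thioesterase, changed by -0.29 (SE 0.13, adjusted p = 0.171).

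The direction of the change was shared by both library sets, though the first holds only 1 WT pair. The second set has 3 WT sham and 2 WT TAC hearts. In it 34 of 35 genes were lower in both WT TAC libraries than in all 3 WT sham libraries. When this set was fitted alone 33 fell, beside 6.69% of all genes. The shares of all genes that did not overlap in this set, or were below 0 in either set, were not computed. Between WT sham 6 and WT TAC 1 of the first set, a single pair with no replicate, 33 of 35 differences were below 0. The same 33 genes were below 0 in the second set. The median difference of that pair was -0.59 for the 35 genes and 0.14 over all genes. When the library set was added as a term to the fit of all 11 libraries, 33 of 35 genes fell, beside 9.01% of all genes. The count moved when a single library was left out. It was 12 without WT sham 7, WT sham 15 or WT TAC 17, 13 without WT sham 13, 21 without WT TAC 1 and 23 without WT sham 6. The share of all genes that fell moved as well. It was 1.35 to 1.61% in the fits with 12, 1.91% without WT sham 13, 3.54% without WT TAC 1 and 4.38% without WT sham 6. When the WT groups were fitted alone 12 of the 35 genes fell, beside 1.62% of all genes. The genes called in each of the 11 fits that left out 1 library numbered 10 of 20: Acsl1, Dgat2, Slc25a20, Cpt2, Crat, Acadvl, Hadha, Acaa2, Ech1 and Acot2. The share of all genes called in every one of those fits was not computed. Centring each library on its median log2 value moved the median of all genes from 0.17 to -0.02 and that of the 35 genes from -0.54 to -0.73. There were then 28 falls among the 35, beside 6.79% of all genes.

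**Figure D3:**
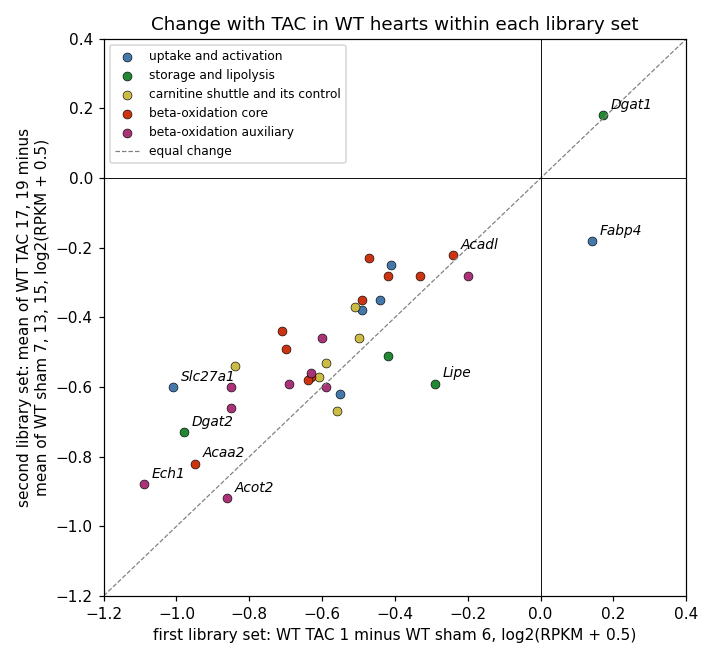
The log2 difference of WT TAC from WT sham within the second set (means of 2 and 3 libraries) is plotted against that between WT TAC 1 and WT sham 6 of the first set, 1 point a gene, coloured by step, with a dashed line where both are equal. In 33 of 35 genes both differences are below 0, at the lower left of the plot.

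Markers of other cell types moved in the same comparison. The 11 measured macrophage markers summed to 123.2 to 143.1 RPKM in WT sham and 278.4 to 331.4 RPKM in WT TAC, and 10 of them rose. The 10 fibroblast markers summed to 344.0 to 440.6 RPKM and 977.9 to 1124.2 RPKM, and 6 rose. The 12 cardiomyocyte markers summed to 28061.9 to 30050.2 RPKM in WT sham and 23409.0 to 24614.2 RPKM in WT TAC, where 1 fell, and had a median change of -0.21 against -0.54 for the fatty acid genes. Endothelial cells also express Cd36 and Fabp4, and their 12 markers summed to 248.6 to 282.0 RPKM and 278.7 to 313.9 RPKM, and 1 rose. Only 2 of 10 adipocyte markers had a value, and they summed to between 7.7 and 11.1 RPKM in all groups, while Adipoq and Plin1, which define the type, had no value used here. In bulk tissue, fewer cells of a type and less RNA per cell cannot be told apart, and the part of these markers in the falls was not tested.

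Other genes of the pathway are read against the 2.85% of all genes that fell and the 13.6% that rose. Their falls lay mostly in mitochondrial oxidation. Of 22 measured genes of that list 9 fell and 2 rose in WT TAC, with a median of -0.47. Ucp3, a mitochondrial carrier known to follow fatty acid supply, fell by 1.22 (SE 0.21, adjusted p = 0.00359), and Acot1, the cytosolic neighbour of Acot2, by 1.03 (SE 0.18, adjusted p = 0.00413), while Acot9 rose by 0.89 (SE 0.16, adjusted p = 0.00519). Of 12 further uptake and activation genes 2 fell and 2 rose. Acss1, a mitochondrial acetyl-CoA synthetase, changed by -0.47 (SE 0.09, adjusted p = 0.00613), and Gpihbp1, the capillary anchor of Lpl, which was named after its value was seen, by -0.50 (SE 0.14, adjusted p = 0.0386). Fabp5 and Acsl5, a binding protein and a synthetase that are also expressed in immune cells, rose by 0.69 (adjusted p = 0.0152) and 0.65 (adjusted p = 0.0208). Of 20 storage genes 2 fell, Lpin1 by 0.49 and Fitm2 by 0.57, and 3 rose, among them Scd2, a stearoyl-CoA desaturase, by 0.57. The rises of Fabp5, Acsl5 and Scd2 kept their direction but not their call after centring, and those of Fabp5 and Acsl5 lost it without WT TAC 17 or 19. The falls of Gpihbp1 and Fitm2 were lost in most fits without 1 library. Of 16 peroxisomal genes 1 fell, Pex11a, a peroxisome division factor, by 0.96 (SE 0.13, adjusted p = 0.00109). Of 21 transcriptional regulators 1 fell, Rxrg, an RXR receptor, by 0.52 (SE 0.11, adjusted p = 0.0104), and the median of that list was -0.01. Ppara, the gene of PPAR-alpha, and Ppargc1a, that of PGC-1 alpha, both outside the rule for named genes, were lower in every WT TAC library without passing the test, at -0.36 (adjusted p = 0.0888) and -0.35 (adjusted p = 0.0838).

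The second comparison asked whether the active kinase altered these genes without load. None of the 35 genes passed the test between caPI3Kalpha sham and WT sham. Over all genes 0% fell and 0.0111% rose, which is Pik3ca alone with a change of 4.32 (SE 0.24, adjusted p = 1.85e-05). At an unadjusted p under 0.05 there were 5 of the 35 genes and 1193 of all genes. The median change was -0.06, against -0.02 over all genes. In 8 genes both caPI3Kalpha sham libraries lay below all 4 WT sham libraries, beside 10.1% of all genes. Lpl read 678.0 and 581.8 RPKM against 774.2 to 1121.1 RPKM in WT sham, a change of -0.61 (SE 0.17, adjusted p = 0.326). Cd36 read 346.5 and 328.3 RPKM against 355.2 to 558.8 RPKM, a change of -0.52 (SE 0.22, adjusted p = 0.326). The lowest WT sham value of both genes was that of WT sham 6, which is in the same library set as the caPI3Kalpha hearts, and for Cd36 its 355.2 RPKM lay just above their range. Acads (0.47), Mlycd (0.35), Pnpla2 (0.28), Lipe (0.26) and Acacb (0.22) were above 0, and Etfa (-0.55), Acadl (-0.40) and Acot13 (-0.31) below, with adjusted p from 0.326 to 0.459. Of these 5 named genes above 0 only Acads kept its sign when the library set was taken into account. With a set term Mlycd (-0.04), Pnpla2 (-0.15), Lipe (-0.20) and Acacb (-0.10) were below 0, as they were in the first set alone. Of all 35 changes 20 were below 0 in the main fit and 28 with a set term.

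That comparison turned on WT sham 6. Without this library Lpl, Etfa, Cd36, Acadl and Fabp4 were called lower and Mlycd, Acads and Slc27a1 higher, beside 8.71% of all genes lower and 11.6% higher. In that fit the caPI3Kalpha libraries, all of the first set, were compared with second-set WT sham libraries only, so that genotype and library set cannot be told apart. WT sham 6 itself lay above the other 3 WT sham libraries for 16 of the 35 genes, below them for 17 and among them for 2. The shares of all genes in these positions were not computed.

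The third comparison set caPI3Kalpha TAC against caPI3Kalpha sham, all 4 libraries being of the first set. None of the 35 genes passed the test, and neither did any other gene (0% lower and 0% higher). At an unadjusted p under 0.05 there were 454 genes, 2 of them, Ech1 and Hadh, among the 35. The median change was -0.13, against 0.01 over all genes. In 16 genes both TAC libraries were lower than both sham libraries, beside 20.0% of all genes, and in 3 (Fabp3, Dgat1 and Hadh) both were higher, beside 22.4%. Ech1 read 327.2 and 371.1 RPKM in caPI3Kalpha sham and 263.4 and 249.0 RPKM in caPI3Kalpha TAC, a change of -0.44 (SE 0.13, adjusted p = 0.502). Hadh read 51.2 and 74.6 RPKM in sham and 85.0 and 85.8 RPKM after TAC, a change of 0.46 (SE 0.18, adjusted p = 0.82). Fabp3 read 1774.0 and 1934.5 RPKM in sham and 2420.8 and 2084.6 RPKM after TAC, a change of 0.28 (SE 0.15). Slc27a1 had the largest change, from 30.5 and 32.8 RPKM to 22.2 and 15.8 RPKM, at -0.74 (SE 0.34, adjusted p = 0.999). Dgat2 (-0.29), Etfb (-0.33), Acacb (-0.31), Acadvl (-0.26), Lipe (-0.22) and Crat (-0.12) were below 0, with adjusted p of 0.999 or 1. The red blood cell markers ranged from 30.0 to 761.4 RPKM in sum between the 2 caPI3Kalpha TAC libraries. Of the atrial markers, Myl7, Myl4 and Sln read 20.8, 20.4 and 13.7 RPKM in caPI3Kalpha TAC 11. In caPI3Kalpha TAC 211 they read 0.4, 1.8 and 0.4 RPKM. Dkk3 differed little (2.2 and 1.9 RPKM), and Nppa went the other way (426.3 and 650.9 RPKM). The part of these markers was not tested.

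The interaction of genotype and operation tests whether the change with TAC differed between caPI3Kalpha and WT hearts. It was above 0 in 33 of 35 genes, that is, less negative or more positive with TAC in caPI3Kalpha hearts, with a median of 0.42 against -0.16 over all genes. None of the 35 passed the test, beside 0% of all genes higher and 0.312% lower, while 13 of the 35 and 926 of all genes had an unadjusted p under 0.05. Hadh had the largest interaction, 0.78 (SE 0.23, adjusted p = 0.233). It was lower in every WT TAC heart than in WT sham, at 45.3 to 54.4 RPKM against 57.1 to 70.3 RPKM, and higher in both caPI3Kalpha TAC hearts than in caPI3Kalpha sham. Fabp3 had the same pattern, with an interaction of 0.55 (SE 0.19, adjusted p = 0.329). For Acaa2 the interaction was 0.57 (SE 0.17, adjusted p = 0.233), for Ech1 0.49 (SE 0.16, adjusted p = 0.3), for Cpt2 0.54 (SE 0.20, adjusted p = 0.349) and for Crat 0.42 (SE 0.16, adjusted p = 0.359). Acot2 (0.68), Dgat2 (0.49), Acsl1 (0.46) and Pnpla2 (0.35) did not pass either, with adjusted p from 0.386 to 0.765. With a set term in the model 12 of the 35 genes passed upward, beside 0.835% of all genes: Fabp3, Dgat2, Pnpla2, Cpt1b, Crat, Mlycd, Acadm, Hadh, Hadha, Hadhb, Acaa2 and Ech1, with values from 0.40 for Pnpla2 to 0.76 for Hadh. Of the other pathway genes Scd2 had an interaction of -1.05 (SE 0.18, adjusted p = 0.0455), which no longer passed after quantile normalization (-0.84, adjusted p = 0.201) or in most fits without 1 library.

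The last comparison set the loaded hearts of the 2 genotypes side by side. Of the 35 genes 8 were higher in caPI3Kalpha TAC than in WT TAC and 0 lower, beside 0.746% of all genes higher and 5.78% lower. The median was 0.36, against -0.18 over all genes. Both caPI3Kalpha TAC libraries lay above all 3 WT TAC libraries in 20 genes, beside 11.5% of all genes, and below them in 1 gene, Lpl, beside 36.2%. The called genes were Fabp3 of uptake, Cpt1b and Mlycd of the carnitine shuttle, Acads, Hadh and Acaa2 of the core and Ech1 and Acot2 of the auxiliary genes. No gene of storage passed. This comparison shares its WT TAC libraries with the first, so the values of both are given side by side and not as separate evidence.

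Fabp3 read 1465.6, 1186.5 and 1333.5 RPKM in WT TAC and 2420.8 and 2084.6 RPKM in caPI3Kalpha TAC. The groups were well apart, and the difference was 0.76 (SE 0.14, adjusted p = 0.0187). Mlycd read 17.8, 13.1 and 14.4 RPKM in WT TAC and 31.4 and 28.3 RPKM in caPI3Kalpha TAC, a difference of 0.97 (SE 0.21, adjusted p = 0.0302). Cpt1b, whose inhibitor Mlycd removes, read 101.5, 84.8 and 88.2 RPKM and 136.9 and 138.3 RPKM, a difference of 0.59 (SE 0.14, adjusted p = 0.038). For these 3 genes WT TAC 1, the WT TAC library of the caPI3Kalpha set, was the highest of WT TAC and still below both caPI3Kalpha TAC libraries.

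Hadh read 45.3, 51.6 and 54.4 RPKM in WT TAC and 85.0 and 85.8 RPKM in caPI3Kalpha TAC, a difference of 0.76 (SE 0.16, adjusted p = 0.0303). Acaa2 read 120.8, 127.3 and 133.0 RPKM and 192.4 and 170.1 RPKM, a difference of 0.51 (SE 0.12, adjusted p = 0.0376). In caPI3Kalpha TAC it remained below the 203.0 and 240.4 RPKM of caPI3Kalpha sham. Acads read 43.7, 33.0 and 30.6 RPKM and 63.6 and 65.5 RPKM, a difference of 0.86 (SE 0.22, adjusted p = 0.0466), with WT TAC 1 again the highest of its group. Ech1 read 179.0, 175.1 and 186.9 RPKM and 263.4 and 249.0 RPKM, a difference of 0.51 (SE 0.12, adjusted p = 0.0364). Acot2 read 7.8, 5.5 and 6.1 RPKM and 14.1 and 12.2 RPKM, a difference of 0.98 (SE 0.21, adjusted p = 0.0277), with the same uncertainty about Acot1.

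**Figure D4:**
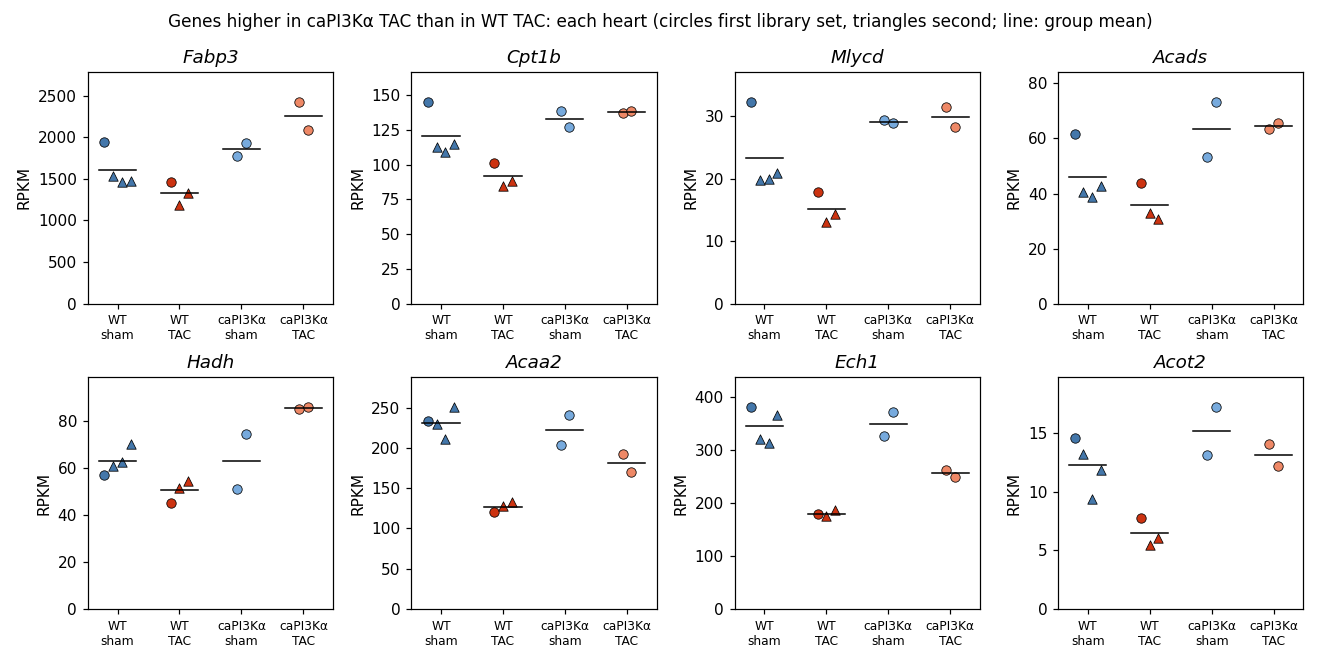
RPKM of each of the 8 genes that differed between caPI3Kalpha TAC and WT TAC, 1 point a library, with a line at the mean of each group, circles for the first library set and triangles for the second. In every panel both caPI3Kalpha TAC points lie above the 3 WT TAC points.

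Of the 35 differences 6 were below 0: those of Lpl, Fabp4 (-0.25), Acadl (-0.20), Cd36 (-0.18), Etfa (-0.17) and Acot13 (-0.15), none of which passed the test. Lpl read 483.0 and 510.2 RPKM in caPI3Kalpha TAC against 553.0, 770.9 and 812.9 RPKM in WT TAC, a difference of -0.50 (SE 0.18, adjusted p = 0.0975) that shrank to -0.19 with a set term and to -0.16 within the first set. Dgat2 was higher by 0.53 (SE 0.15, adjusted p = 0.058) and Pnpla2 by 0.64 (SE 0.22, adjusted p = 0.0837), neither past the threshold. None of the 8 calls was kept in all 11 fits that left out 1 library. The count was 0 without WT TAC 17, WT TAC 19, caPI3Kalpha TAC 11 or caPI3Kalpha TAC 211, 3 or 4 without WT sham 7, 13 or 15 or either caPI3Kalpha sham library, and 15 without WT sham 6 or WT TAC 1, of which 14 were higher and 1, Lpl, lower. Without WT sham 7, 13 or 15, 0.267 to 0.289% of all genes were higher and 2.49 to 2.73% lower. Without WT TAC 17 the shares were 0.0334% and 0.59%, and without WT TAC 19 they were 0.0556% and 0.868%. Without WT sham 6, 3.78% of all genes were higher and 17.5% lower, and without WT TAC 1, 8.29% and 28.1%. Without WT TAC 1 the caPI3Kalpha TAC libraries, all of the first set, were compared with second-set WT TAC libraries only. Genotype and library set cannot be told apart in that fit. The count was 1 when the TAC groups were fitted alone, beside 0.089% of all genes higher, and 12 after centring on library medians, beside 1.45%. With a set term, which rests on the WT hearts alone since all caPI3Kalpha hearts are of 1 set, 18 genes were higher, beside 1.26% of all genes. The direction of the 8 genes was the same in each of these fits. The macrophage markers summed to 124.1 to 146.0 RPKM in caPI3Kalpha TAC against 278.4 to 331.4 RPKM in WT TAC, with 7 of 11 lower, and the fibroblast markers to 444.0 to 479.2 RPKM against 977.9 to 1124.2 RPKM, with 4 of 10 lower. The cardiomyocyte markers summed to 28709.2 to 29579.2 RPKM against 23409.0 to 24614.2 RPKM, with 2 of 12 higher and 1 lower. The part of these in the 8 differences was not tested.

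Other pathway genes that were higher in caPI3Kalpha TAC than in WT TAC were Ucp3 by 1.28 (SE 0.25, adjusted p = 0.021), Acot1 by 0.84 (adjusted p = 0.0472) and Acad12, an acyl-CoA dehydrogenase family member, by 0.61 (adjusted p = 0.0476), with Pdk4, the kinase that restrains glucose oxidation, as the other one of that list at 1.23 (SE 0.32, adjusted p = 0.0477), named after its value was seen. Pex11a was higher by 1.01 (SE 0.16, adjusted p = 0.00943) and Gpihbp1 by 0.72 (SE 0.17, adjusted p = 0.038). Acsl5 (-0.83, adjusted p = 0.0369), Fabp5 (-0.80, adjusted p = 0.0376) and Scd2 (-0.88, adjusted p = 0.00806) were lower. Each of these 9 calls was lost in at least 1 fit that left out a single library. Of 21 regulators none passed.

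Promoters were read because the receptors named above bind known elements near many of these genes. RefSeq promoters of the GRCm38.p6 build, from 250 bases before to 50 after the start site, were found for 25 of the 35 genes, 29 promoters in all. A direct repeat of AGGTCA with 1 base between the copies (DR1), the element of PPAR with RXR, was searched on both strands with at most 2 mismatches and was found in 4 of 29 promoters, 13.8% (exact 95% interval 3.89 to 31.7%), against 2.86% of the promoters of all genes in the RPKM table and 3.86% of all promoters. With at most 1 mismatch it was found in 0% of the 29 promoters, against 0.419% and 0.554%. AAGGTCA, the element of estrogen-related receptors, which can overlap a DR1, was found in 6.9%, against 3.23% and 4.72%. The longer TCAAGGTCA was in 0%, against 0.263% and 0.423%. The promoters of Cd36, Echs1 and Etfa, with a DR1, and of Acadm, with AAGGTCA, are shown for 150 bases each as the matches that lie before a start site, 5′ to 3′ in the direction of the gene, which is on the minus strand in all 4, with the match in capitals. The Cd36 match begins 63 bases before the start site, that of Echs1 83, that of Etfa 77 and that of Acadm 249, and those of Cd36, Etfa and Acadm are on the opposite strand to the gene.
Cd36, chr5:17835897-17836046: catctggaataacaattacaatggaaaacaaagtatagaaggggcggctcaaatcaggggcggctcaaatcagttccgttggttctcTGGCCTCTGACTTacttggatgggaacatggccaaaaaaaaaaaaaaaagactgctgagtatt
Echs1, chr7:140116422-140116571: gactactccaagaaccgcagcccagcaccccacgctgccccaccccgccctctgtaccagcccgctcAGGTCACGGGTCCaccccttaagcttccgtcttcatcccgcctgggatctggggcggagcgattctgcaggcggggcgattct
Etfa, chr9:55512244-55512393: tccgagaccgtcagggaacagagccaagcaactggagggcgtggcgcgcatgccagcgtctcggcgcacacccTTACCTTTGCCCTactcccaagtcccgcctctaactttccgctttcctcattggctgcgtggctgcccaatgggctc
Acadm, chr3:153944744-153944893: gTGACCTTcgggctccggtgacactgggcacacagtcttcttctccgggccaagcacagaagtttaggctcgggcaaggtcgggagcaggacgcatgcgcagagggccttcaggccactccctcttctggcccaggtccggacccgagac
A match of letters in these windows is a description and does not show that a receptor binds there. Of the 4 genes shown, Acadm and Echs1 fell in WT TAC, and the changes of Etfa and Cd36 did not pass the test.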

How the data were processed

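Poly-A selected mRNA of 11 left ventricles was sequenced from single ends, per the labels' protocols. The deposited table holds RPKM, computed by the authors and printed to 1 decimal, for genes that reach 3 RPKM in at least 1 library. The submitters' processing notes list Bowtie, CASAVA 1.6, Partek 6.5 and the build mm9 without saying what each was used for. After 261 blank lines, 2 repeated lines and 1 line with an error mark were dropped from 9251 lines, 8987 genes remained, with RPKM sums of 202916.4 to 212396.3 per library. The small RNA libraries were not used here.

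Each column was matched to a sample by group and animal number, and for WT sham 15 the title was used, since the source name gives another number. RPKM + 0.5 was log2 transformed and tested with limma 3.58.1 (lmFit, eBayes with trend, not robust) in R 4.3.3, 4 groups in 1 model with 7 residual degrees of freedom. Requiring a mean of 1 RPKM left out 0 genes. The test was tried on simulated data first. Depth is unknown, so no counting interval can be given.

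The members and lists were chosen with earlier results of these data known. Changes are given for all called members or, where over 12 passed, at least for the 3 of each step with the smallest p, for the 2 with the smallest p in a step with none, and for at most 3 called genes of each other list; genes outside the rule are named as such or complete the account of the 35. Alternatives were pseudocounts of 0.1 and 1, quantile normalization, centring, no filter, a filter at a mean of 5 RPKM, the compared groups alone, a set term, each set alone and each library left out. Where a fit left 1 library in a group, that library was taken to vary like the other groups. Promoter sequences come from RefSeq.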

Additional observations from a re-analysis of the deposited data

Results flagged for a closer look

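In 9 of the 35 genes WT sham 6 lay apart from the other 3 WT sham libraries, by a gap that exceeded Dixon's 95% critical value. It was the highest for Fabp3 (1941.2 RPKM), Pnpla2 (79.1 RPKM), Lipe (10.6 RPKM), Cpt1b (144.9 RPKM), Mlycd (32.2 RPKM) and Etfb (328.8 RPKM), and the lowest for Acadl (347.8 RPKM), Acat1 (81.2 RPKM) and Decr1 (61.4 RPKM). Chance alone gives such a gap in about 1 of 20 groups. The share of all genes with such a gap was not computed. WT sham 6 is the WT sham library of the first set.

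Fabp3 and Hadh had changes of opposite sign with TAC in the 2 genotypes, none of which passed the test. Every WT TAC heart was below every WT sham heart, beside 4.65% of all genes. Both caPI3Kalpha TAC hearts were above both caPI3Kalpha sham hearts, beside 22.4% of all genes. The share of all genes with both patterns was not computed. The interaction was 0.55 for Fabp3 (limma adjusted p = 0.329) and 0.78 for Hadh (limma adjusted p = 0.233), so that neither difference passed the test over all genes, while both passed with a set term (0.57 and 0.76).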

How the results depend on the processing

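The count of 20 genes lower in WT TAC than in WT sham became 12 with the compared groups alone and 33 with a set term. The first set alone holds 1 library of each WT group, so no count is given for it. There the median change of the 35 genes was -0.59. The count was 33 in the second set alone. With the second-set WT libraries and caPI3Kalpha kept in the model, chosen after seeing the data, it was 31, beside 7.07% of all genes. It ranged from 12 to 23 when 1 library was left out. The count of 8 between the TAC groups became 1 with the compared groups alone and 18 with a set term, and ranged from 0 to 15 without 1 library. In the first set alone, with 1 WT TAC library, the median difference was 0.39, against -0.13 over all genes. The interaction count of 0 became 12 with a set term. The caPI3Kalpha sham count of 0 ranged from 0 to 8 without 1 library. The reduced fits hold fewer libraries, and the cause of these shifts was not tested. Pseudocounts and filters left all 5 counts within 1.5 times.

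Signs turned for Fabp4 in WT TAC (0.14 in the first set alone) and Dgat1 (-0.01 after quantile normalization). In caPI3Kalpha sham they turned with a set term for Pnpla2 (-0.15), Lipe (-0.20), Mlycd (-0.04) and Acacb (-0.10), and in the first set alone (-0.11, -0.09, -0.14 and -0.12). The DR1 share of 13.8% became 0% at 1 mismatch, where it was 0.419% for the promoters of all genes in the RPKM table. No paired analysis was possible because the compared mRNA groups share no animal numbers.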

Other observations

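Among all pathway genes outside the 35, Pdk4, the kinase that restrains glucose oxidation, and Ucp3 had the highest interactions of genotype and operation on the log2 scale, at 1.89 (SE 0.44, limma adjusted p = 0.128) and 1.82 (SE 0.35, limma adjusted p = 0.0655). Both were lower in WT TAC than in WT sham (-0.88 and -1.22), and neither interaction passed the test over all genes.

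Like the ratio of Etfa to Etfb, other ratios between genes of the same step also differed between the library sets. The sets were themselves drawn from the values of these libraries, so the ratios are a description and no separate evidence for them. Fabp4 over Fabp3 was 0.15 to 0.25 in the 6 libraries of the first set and 0.32 to 0.37 in the 5 of the second. Hadha over Hadhb, the subunits of 1 protein complex, was 0.77 to 0.85 and 0.61 to 0.70. None of these ranges overlapped between sets, whatever the operation.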
